A study of Mus musculus with 2 samples.

Results

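The genes described here build and control motile cilia, and they were measured in RNA from dissected mouse retina. The list holds 50 genes, from axonemal dynein chains to the transcription factors of ciliogenesis. A gene was taken as measured where a non-control probe of the array carried a RefSeq transcript accession of that gene. In all, 46 of the 50 genes had such a probe, with 72 probes between them, out of 21367 genes named on the array. No probe was matched to Dnah3, Dnah12, Cfap54 or Ccdc40.

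A motile cilium is a microtubule axoneme whose dynein arms slide neighbouring doublets against each other, while radial spokes and a central pair of microtubules regulate the beat. Inner and outer dynein arms are built from heavy, intermediate and light chains, and proteins inside the doublet wall keep the microtubules stable. Such cilia are known from the ependyma, the airways, the oviduct and, as flagella, from sperm. Photoreceptors instead carry a modified non-motile cilium, the connecting cilium, which lacks a central pair and links the inner to the outer segment. FOXJ1 and the RFX factors are known as transcriptional activators of ciliary genes.

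The study compared 1 array of retina RNA labelled wild type with 1 array labelled Samd7 KO, both from mice at postnatal day 12 and with no treatment given in the labels. Samd7 encodes a sterile alpha motif protein of photoreceptors, and the comparison asks how the retinal profile differs when the gene is disrupted. The labels do not give the strain, the number of mice or retinas pooled in each sample, or the deleted part of the gene. With 1 array in each group there is no replicate, no test and no spread between animals, so every difference below compares these 2 arrays only. In a whole tissue, fewer cells of a type and less RNA per cell cannot be told apart.

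Each array held 59305 non-control spots, of which 60.3% and 60.9% were well above background, and no spot was saturated. The probe of Samd7 gave a processed signal of 14769 for the wild-type label and 48967 for the knockout label, 3.44-fold higher where the label says knockout. Its position relative to the deletion is not known here, so it may check nothing. An exchange of the 2 arrays was not tested and cannot be told apart from a probe outside the deletion. The arrays are therefore named by their labels. If they were exchanged, every sign, every count of higher and lower genes and every rank below would turn. All 15 rod, 15 cone, 11 bipolar and 12 Müller glia markers with a probe were above background on both arrays. Rod markers had summed linear levels of 1835 for the wild-type label and 1499 for the knockout label, with 14 of 15 below 0 and a median difference of -0.28 on the log2 scale. Cone markers had summed levels of 185 and 567, a rise that was mostly Gngt2 (2.45). Their median was 0.997, with 7 of 15 (46.7%) at least 2-fold higher, against 1.57% of all named genes. The 4 below 0 were Opn1mw (-0.17), Thrb (-0.21), Pde6c (-0.04) and Pde6h (-0.01). The part of these shifts in the differences of the motile cilium genes was not tested.

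Levels are log2 processed signals relative to the 75th percentile of the array, and a difference is the level on the knockout-labelled array minus that on the wild-type-labelled array. The only error available is technical. It was taken across probes printed at several spots and above background, by mean level over the 2 arrays. The SD of the log2 difference was 0.05 at mean levels of at least 0 and 0.09 between -2 and 0. It was 0.19 between -4 and -2, and 0.38 under -4. Because signal depends on the probe, levels of different genes were not set against each other, except where they were added within marker lists. Such sums weigh the brightest probes most.

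The motile cilium genes split between one outer-arm chain that was much higher and several other axonemal genes that were lower on the knockout-labelled array. Dnaic1, an outer-arm intermediate chain, was 13.3-fold higher. Its partner Dnaic2 was 3.06-fold lower, the light chain Dynlrb2 3.46-fold lower, and the axonemal genes Cfap126, Cfap52 and Cfap221 between 3.61-fold and 5.87-fold lower. Of the 50 genes, 33 were above background on both arrays, 3 on the knockout-labelled array only, 1 on the wild-type-labelled array only and 9 on neither. Of the 37 measured on at least 1 array, 3 (8.11%) were at least 2-fold higher and 6 (16.2%) at least 2-fold lower. Among all 15938 named genes measured the same way, 1.57% were at least 2-fold higher and 1.37% at least 2-fold lower.

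Most members were dim, and dim genes pass 2-fold more often. Among the 7210 named genes with a mean level below 0, 2.36% were at least 2-fold higher and 2.76% at least 2-fold lower. Of the 31 members in that range, 2 (6.45%) were higher and 4 (12.9%) lower by that measure. These members were dimmer still, with a median level of -3.15 over those above background on both arrays, against -2.13, so level is not fully matched. Of the 27 members above background on both arrays in that range, 0 were higher and 3 lower, beside 79 and 75 of 6530 named genes. The median difference over the 33 members above background on both arrays was -0.28, with 26 of them (78.8%) below 0. Over all named genes the median was -0.02, with 58.1% below 0.

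**Figure D1:**
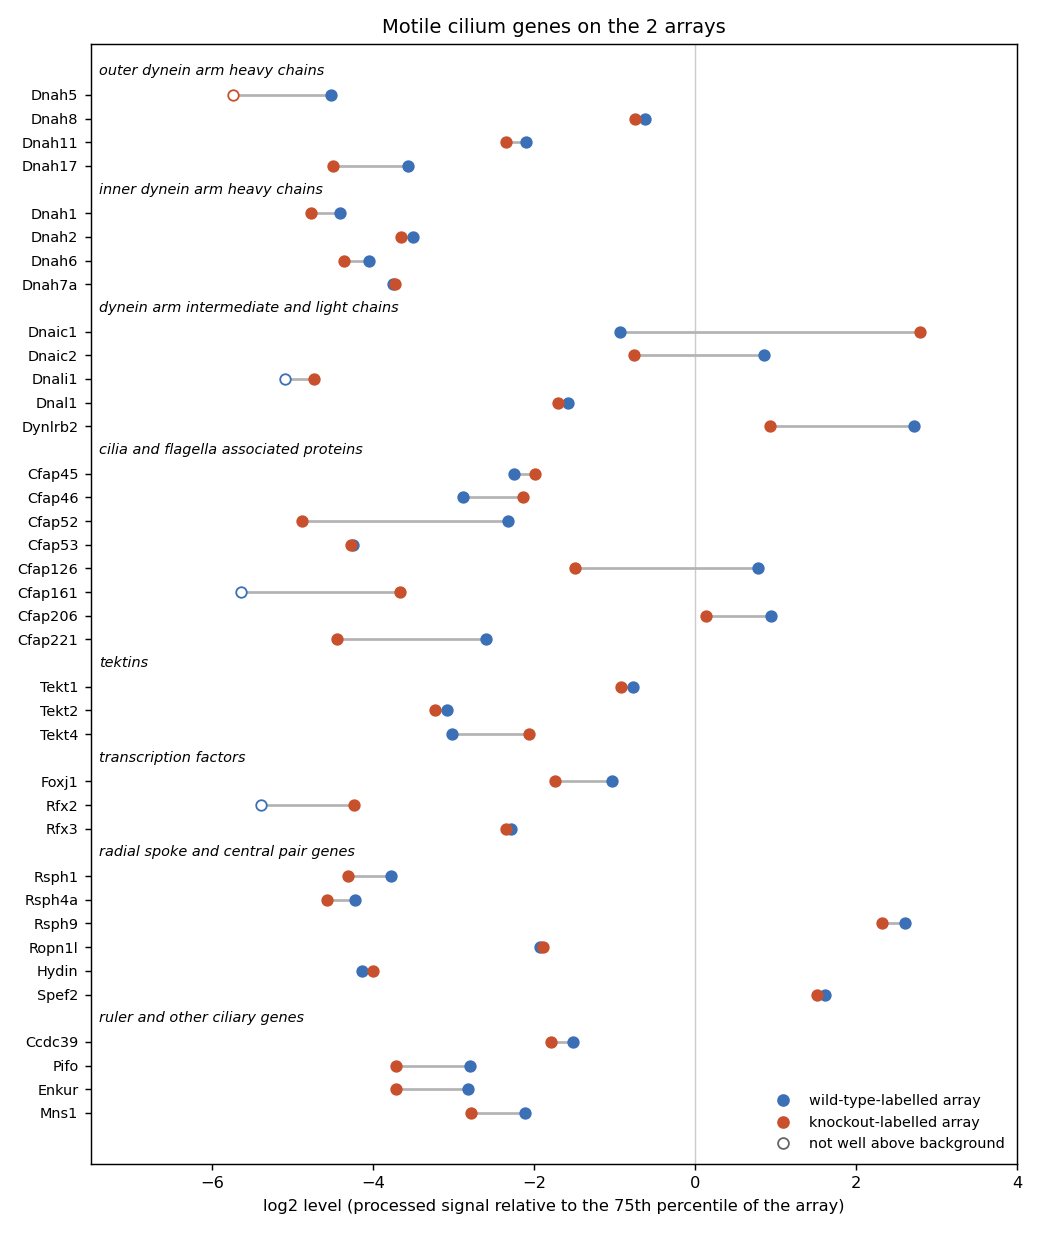
Level of each of the 37 measured motile cilium genes on the 2 arrays, grouped by role, as log2 processed signal relative to the 75th percentile of the array. Lines join the 2 arrays, and open circles mark a probe not well above background; Dnaic1 is far to the right on the knockout-labelled array, and Dnaic2, Dynlrb2, Cfap52, Cfap126 and Cfap221 lie to the left.

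The intermediate and light chains of the dynein arms held the widest spread, with differences from -1.79 to 3.73 over the 4 genes above background on both arrays. Dnaic1, now called Dnai1, had a processed signal of 301 for the wild-type label and 3846 for the knockout label. The difference of 3.73 on the log2 scale was the 7th highest of 15258 named genes above background on both arrays. At the mean level of Dnaic1, 0.93, the technical SD is 0.05. The scanner software's own error model, which allows for more than spot noise, gives an error of 0.20. DNAI1 and DNAI2 sit together at the base of the outer arm, and mutations of either are known to cause primary ciliary dyskinesia.

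Dnaic2, now called Dnai2, gave 1036 for the wild-type label and 326 for the knockout label, a difference of -1.62. The 2 intermediate chains of the same arm thus lay on opposite sides. Dynlrb2, a roadblock-type light chain that cytoplasmic dynein also uses, gave 3795 and 1057 in that order, a difference of -1.79. Dnal1, a light chain bound to an outer-arm heavy chain, was near level at -0.14. Dnali1, an inner-arm light intermediate chain, was above background on the knockout-labelled array alone. There it was 1.28-fold higher as measured, a difference of 0.35 with a software error of 0.42.

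The promoters of the 4 members that stayed 2-fold apart under each normalization and background correction tried are shown because their signals carry the main differences. The sequences are RefSeq's for assembly GRCm38.p6, the 250 bases before an annotated start, read on the strand of the gene. Capitals mark a match, on either strand, to the short X-box motif GTTGCC. The X-box is the site that RFX factors are known to bind. The forkhead motif TGTTTAC and the homeodomain motif TAATCC were also searched on both strands and had no match in these windows. Positions are chr4:41569544-41569793 (plus strand) for Dnaic1, chr11:114727169-114727418 (plus) for Dnaic2, chr8:116504765-116505014 (plus) for Dynlrb2 and chr1:171113736-171113985 (plus) for the first of 3 listed Cfap126 starts.
Dnaic1: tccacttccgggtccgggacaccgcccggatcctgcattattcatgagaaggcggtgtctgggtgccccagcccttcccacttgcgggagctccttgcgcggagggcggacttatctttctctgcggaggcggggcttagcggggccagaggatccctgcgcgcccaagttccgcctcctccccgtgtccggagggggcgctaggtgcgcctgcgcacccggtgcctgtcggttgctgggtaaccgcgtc
Dnaic2: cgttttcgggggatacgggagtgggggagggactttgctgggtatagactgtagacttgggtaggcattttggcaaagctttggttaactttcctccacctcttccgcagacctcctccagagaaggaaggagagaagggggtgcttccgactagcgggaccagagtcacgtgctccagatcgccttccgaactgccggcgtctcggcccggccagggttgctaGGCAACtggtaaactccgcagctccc
Dynlrb2: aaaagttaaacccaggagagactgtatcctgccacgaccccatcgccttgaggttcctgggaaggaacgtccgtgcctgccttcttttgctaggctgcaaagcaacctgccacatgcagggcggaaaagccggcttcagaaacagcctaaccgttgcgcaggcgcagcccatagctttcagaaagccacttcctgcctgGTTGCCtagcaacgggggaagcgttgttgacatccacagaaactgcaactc
Cfap126: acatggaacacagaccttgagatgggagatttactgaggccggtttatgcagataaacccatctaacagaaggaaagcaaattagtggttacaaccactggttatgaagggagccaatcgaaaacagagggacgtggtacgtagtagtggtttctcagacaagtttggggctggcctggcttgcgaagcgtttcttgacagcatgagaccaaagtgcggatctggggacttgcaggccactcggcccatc

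In Dnaic2 the match lay 26 to 21 bases before the start and in Dynlrb2 51 to 46 bases before it. Dnaic1 and Cfap126 had no match to these letters in the windows shown. Of 44 members with a promoter in the table, 17 (38.6%) held GTTGCC, against 11.8% of 27025 genes. The forkhead motif was in 4 of the 44 (9.09%), against 3.54% of genes, and the homeodomain motif in 2 (4.55%), against 7.21%. Among the 9 members 2-fold apart, GTTGCC was in 4, namely Dnaic2, Dynlrb2, Cfap161 and Rfx2, which lay on both sides of 0. A match is a description of the letters and not a site of binding.

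Of 8 measured genes for cilia and flagella associated proteins, 3 were at least 2-fold lower and 1 at least 2-fold higher. Cfap126, also known as Flattop and involved in positioning basal bodies, gave 986 for the wild-type label and 198 for the knockout label with its brighter probe, a difference of -2.27. Its dimmer probe gave 349 and 80.5, a difference of -2.06. Both probes were thus more than 4-fold lower on the knockout-labelled array. It was the 8th lowest of the genes above background on both arrays.

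Cfap52, a protein inside the doublet microtubules, gave 115 for the wild-type label and 18.8 for the knockout label. That difference of -2.55 was the 4th lowest, with a software error of 0.33. The technical SD was 0.19 at the mean level of Cfap52, -3.60. It was 0.38 under -4, where the knockout-labelled level of -4.88 lay. Cfap221, a central pair protein also called Pcdp1, gave 94.8 and 25.3, a difference of -1.85. Both genes were dim on the knockout-labelled array, and normexp, whose offset shrinks dim differences, left Cfap52 at -0.97 and Cfap221 at -0.77.

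Cfap206, a radial spoke adaptor, gave 1100 and 609 and lay at -0.80, short of 2-fold. Cfap161, another protein of the doublet interior, went the other way by a bound. It gave 43.6 on the knockout-labelled array and 11.5, not well above background, on the wild-type-labelled array. By that bound it was 3.30-fold higher (0.40 on the log2 scale under normexp). Such a bound sets the bright signal against the lowest level called well above background on the other array. That level was -5.39 for the wild-type label, yet a Cfap46 probe at -4.97 there was not well above background. The bound is therefore not a strict minimum. Where the dim signal itself is higher than the lowest called level, it is used instead, and the fold is then as measured. Cfap45 was at 0.27 and Cfap53 at -0.03, and Cfap43 and Cfap44 were not well above background on either array. The 3 usable Cfap46 probes disagreed, at 0.75, -0.26 and -0.39, so no direction is given for that gene.

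**Figure D2:**
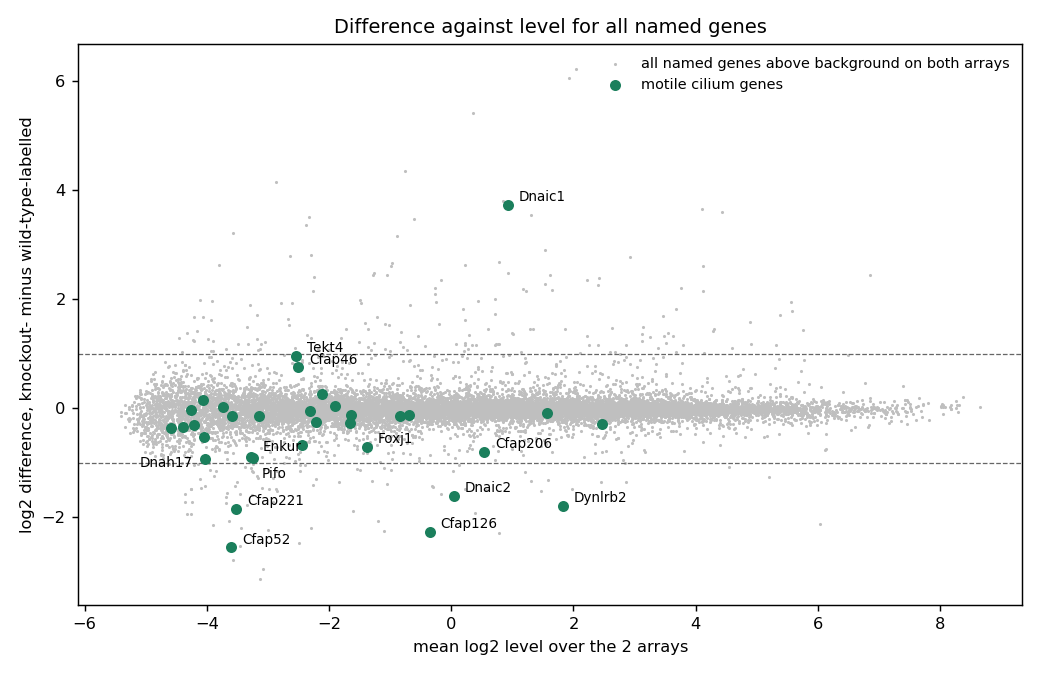
Log2 difference, knockout- minus wild-type-labelled, against the mean log2 level, for all 15258 named genes above background on both arrays (grey) and the 33 motile cilium genes among them (green). Dashed lines mark 2-fold; Dnaic1 stands at 3.73 above, and Dnaic2, Dynlrb2, Cfap126, Cfap221 and Cfap52 lie below -1.

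Dynein heavy chains, the motors themselves, differed less where they could be measured on both arrays. Of 12 listed, 10 had a probe and 7 were above background on both arrays. None of these 7 was 2-fold apart. Most were dim: Dnah1, Dnah2, Dnah6, Dnah7a and Dnah17 had signals of 20.3 to 50.5 and technical SDs of 0.19 or 0.38. A chain that fell to background on 1 array is not among the 7. Among the outer-arm chains, Dnah8 was at -0.13 and Dnah11 at -0.25, both within the 5th to 95th percentile of all named genes (-0.36 to 0.32). Dnah17 was at -0.94, but at -0.38 under normexp. The mean over probes put Dnah17 at -0.54, as it took in another probe not well above background on either array. Dnah5, the outer-arm chain most often mutated in primary ciliary dyskinesia, gave 25.0 on the wild-type-labelled array. On the other array it gave 10.4, not well above background, and was 2.05-fold lower by a bound, which is not a strict minimum. That bound fell short of 2-fold under quantile normalization (-0.97), loess (-0.99) and normexp (-0.19). The 4 inner-arm chains lay from -0.36 (Dnah1) to 0.02 (Dnah7a), with Dnah6 at -0.31 and Dnah2 at -0.15. The sign of Dnah1 turned under normexp (0.02), and that of Dnah7a under normexp (-0.03) and with the mean over probes (-0.15). Dnah9 and Dnah10 were not well above background on either array.

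Among the transcription factors, Foxj1, a master regulator of motile ciliogenesis, gave 281 for the wild-type label and 166 for the knockout label. Its difference of -0.71 (1.63-fold lower) was larger than the technical SD of 0.09 and the software error of 0.21 but short of 2-fold, and it was -0.44 under normexp. Rfx3, an activator of ciliary genes, was near level, with 3 probes at -0.05, -0.03 and -0.28. Rfx2, which is known for its part in spermiogenesis, gave 29.4 on the knockout-labelled array and 13.7, not well above background, on the wild-type-labelled array. Against that dim signal it was 2.22-fold higher as measured, which is not a minimum. On the log2 scale that is 1.15, with a software error of 0.40 and a technical SD of 0.38, and 0.36 under normexp.

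Radial spoke and central pair genes were closer to level, with a median of -0.19 and none 2-fold apart among the 6 above background on both arrays. Rsph9, a spoke head protein, gave 3505 for the wild-type label and 2771 for the knockout label, a difference of -0.29. The other spoke head genes were at -0.53 (Rsph1) and -0.35 (Rsph4a), or at -0.11 and -0.08 under normexp, and the spoke protein gene Ropn1l was at 0.04. Hydin, of the central pair, was at 0.14. Spef2, a central pair protein also needed for the sperm tail, gave 1756 and 1587 with the brighter probe, a difference of -0.09. Its other probe, designed on another transcript, gave -0.97, which puts the mean over probes at -0.53. Spag6, Spag16 and Spag17, which belong to the central apparatus, were not well above background on either array.

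Of the tektins, filament proteins of the doublet wall, none was 2-fold apart. Tekt4 gave 70.9 for the wild-type label and 132 for the knockout label, a difference of 0.95 (0.54 under normexp), while Tekt1 (-0.14) and Tekt2 (-0.15) were near level, and the sign of Tekt2 turned under normexp (0.07). Tekt3 was not well above background on either array.

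None of the 4 other ciliary genes that could be measured was 2-fold apart. Pifo, which acts in cilium disassembly, was at -0.91, Enkur, a protein of the doublet interior, at -0.90, and Ccdc39, part of the ruler that spaces the arms, at -0.28. Under normexp Pifo was at -0.40, Enkur at -0.41 and Mns1 at -0.40. The mean over probes put Pifo at -0.54, as it took in another probe not well above background on either array. Mns1, a filament-like protein of the doublet interior, is the single member printed at 10 spots. Its signals ran from 121 to 145 around a median of 133 for the wild-type label and, for the knockout label, from 71.0 to 91.0 with a median of 80.7. The spots of the arrays did not overlap, and the difference was -0.68 ± 0.14 (SD, 10 spots of 1 probe, which are not replicates of the condition), below 0 in all 10. Ak7 was not well above background on either array.

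**Figure D3:**
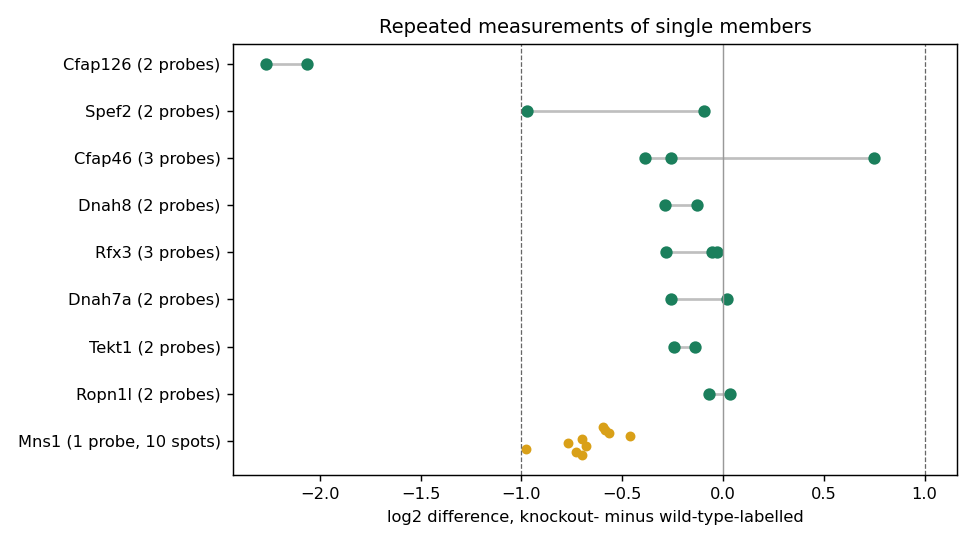
Log2 difference, knockout- minus wild-type-labelled, for each probe of the 8 members that had 2 or more probes measured on both arrays (green, 1 point a probe) and for each of the 10 spots of the Mns1 probe (yellow). Dashed lines mark 2-fold; the Cfap126 probes agree at -2.27 and -2.06, while the Cfap46 probes run from -0.39 to 0.75.

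For 8 members, 2 or more probes were measured on both arrays, and the median range between probes of a gene was 0.23, from 0.10 (Tekt1) to 1.14 (Cfap46). In 3 of the 8 (Cfap46, Dnah7a and Ropn1l) the probes lay on both sides of 0. Of the 9 members 2-fold apart, Cfap126 was the only one with more than 1 probe, so the others rest on a single probe each.

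Other genes of the motile axoneme were listed separately, 161 in all, of which 143 had a probe and 108 were measured on at least 1 array. None was at least 2-fold higher and 5 (4.63%) were at least 2-fold lower, beside the 1.57% and 1.37% of all named genes. Meig1, needed for sperm formation, gave 1432 for the wild-type label and 488 for the knockout label, a difference of -1.50. Wdr63, an inner-arm intermediate chain, gave 877 and 380, a difference of -1.15, and its dimmer probe gave 384 and 19.1, a difference of -4.27 (-2.71 for the mean over probes). Calml4 gave 897 and 419, a difference of -1.05 (-0.97 under normexp). Morn3 was 3.50-fold lower by a bound, and at -0.55 on the log2 scale under normexp. Ribc2, a protein of the doublet interior, was not well above background on the knockout-labelled array. It was 2.71-fold lower as measured, and at -0.36 under normexp. The mean over probes put Morn3 at -0.31.

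The median difference of these other genes was -0.11, with 72 of 101 (71.3%) below 0. Spoke and central pair genes among them had a median of -0.42, with 13 of 15 below 0, and nexin-dynein regulatory complex genes one of -0.29, with 7 of 8 below 0. Dynein assembly factors (-0.10), further dynein chains and docking genes (-0.11), further cilia and flagella associated genes (-0.07) and regulators of multiciliated cells (-0.04) were nearer to all genes. Mcidas, a regulator at the top of the multiciliated program, was at 0.32 and Ccno, another gene of that program, at -0.22.

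**Figure D4:**
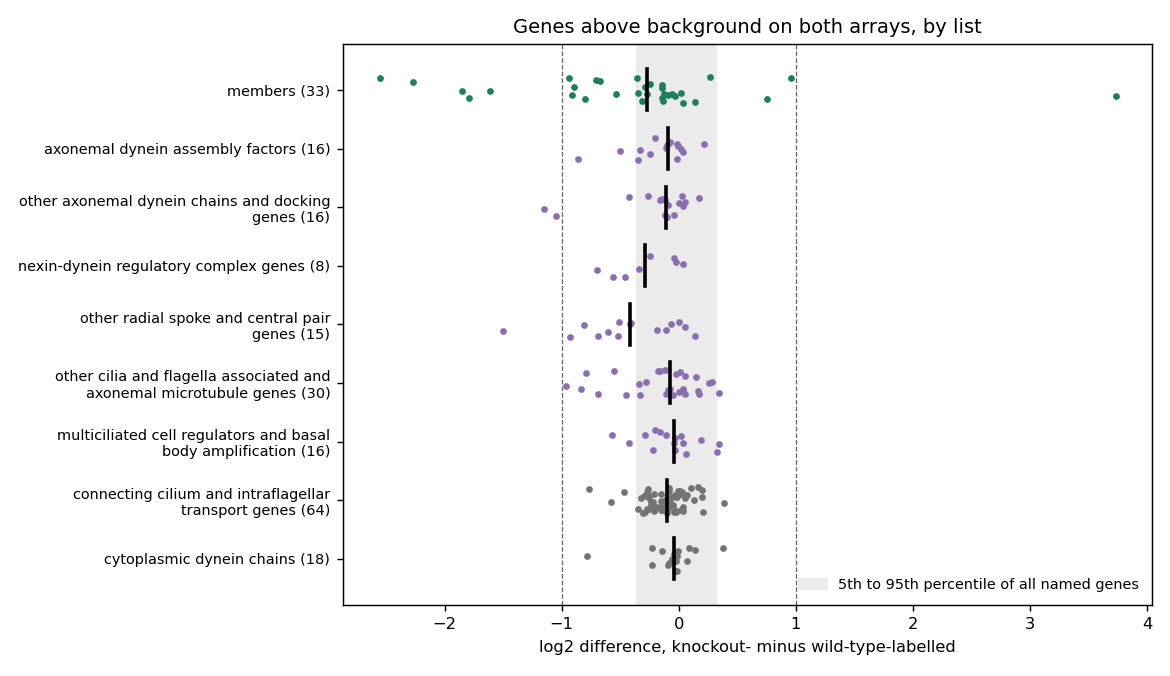
Log2 difference, knockout- minus wild-type-labelled, of every gene above background on both arrays in the members (green), 6 further motile cilium lists (purple) and 2 lists of other ciliary or motor genes (grey). Black bars are medians, the number of genes is in brackets, dashed lines mark 2-fold and the band spans the 5th to 95th percentile of all named genes (-0.36 to 0.32); the members reach from -2.55 to 3.73.

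Genes of the connecting cilium and of intraflagellar transport, the non-motile ciliary genes closest to this group, had no member 2-fold apart among 64, all above background on both arrays. Their median was -0.10, with 49 of 64 (76.6%) below 0, and their lowest value was -0.77. The 18 cytoplasmic dynein and dynactin genes had a median of -0.04 and none 2-fold apart. The median of the motile cilium genes was lower than both, at -0.28 under the main values, but under normexp it was -0.11, as was that of the connecting cilium list. The difference between these lists was not tested, as the design has no replicates.

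Markers of other cells that could contribute RNA were listed too. Ependymal markers were above background for 8 of 12 genes, with summed linear levels of 13.3 on either array and 4 of 8 differences below 0. Most of either sum is Tppp3 (0.04), Cd24a (-0.04), S100b (-0.02) and Ezr (0.13). Among the dimmer markers Foxj1 was at -0.71, Mia at -0.32, Fam183b at 0.04 and Rarres2 at 0.20. Ak7, Ccdc153, Hdc and Tmem212 were not well above background, and 2 of the 12 (Foxj1 and Ak7) are also members. Choroid plexus markers were above background for 12 of 13, with summed levels of 109 for the wild-type label and 125 for the knockout label. Most of that sum is Otx2, also made in the retina, at 0.06, and Kcne2. By gene, 8 of the 12 were below 0, with a median of -0.11. In that list Aqp1, a water channel also made in the retina, was at -1.49, Kcne2, also on the cone list, at 1.42, Ttr at -0.53, Clic6 at -0.50 and Cldn2 was not well above background. Sperm markers were above background for 9 of 18, with summed levels of 3.06 and 2.60 and 4 of 6 measured on both arrays below 0. Most of either sum is Odf2 (-0.25). Of these 9 markers, only Odf1 passed 2-fold, by a bound, and it lay on the higher side. Odf1 gave 27.1 for the knockout label and 2.81, not well above background, for the wild-type label. The bound for Odf1 is 2.05-fold, or 1.04 on the log2 scale, and is not a strict minimum. Sperm markers not well above background were Acrv1, Akap3, Akap4, Izumo1, Ldhc, Pgk2, Smcp, Spata18 and Tnp2. Of the 15 lens markers, 12 were above background on both arrays and 3 on the knockout-labelled array only, with summed levels of 5.10 and 20.7. Pigment epithelium markers, with 12 of 13 above background and Lrat not, had 55.4 and 47.2. Of the lens markers 11 of 15 (73.3%, against 1.57% of all named genes) were at least 2-fold higher. These include 9 above background on both arrays, and Crygn and Mip by a bound. Of the 12 pigment epithelium markers 10 were below 0, with a median of -0.35 and none 2-fold apart. The part of any of these cells in the differences above was not tested.

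The genes next to the 9 members 2-fold apart were mostly level. Of 18 neighbouring protein-coding genes by order in GRCm38.p6, 15 were measured, and 13 of these lay between -0.29 and 0.29. Enho, whose annotated span overlaps that of Dnaic1, gave 11463 for the wild-type label and 24949 for the knockout label, a difference of 1.18 in the same direction as Dnaic1. On the other side of Dnaic1, Fam219a was at -0.29. Maf, next to Dynlrb2, was 6.39-fold higher (2.68), opposite to Dynlrb2. These neighbours were singled out after their values were seen.

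**Figure D5:**
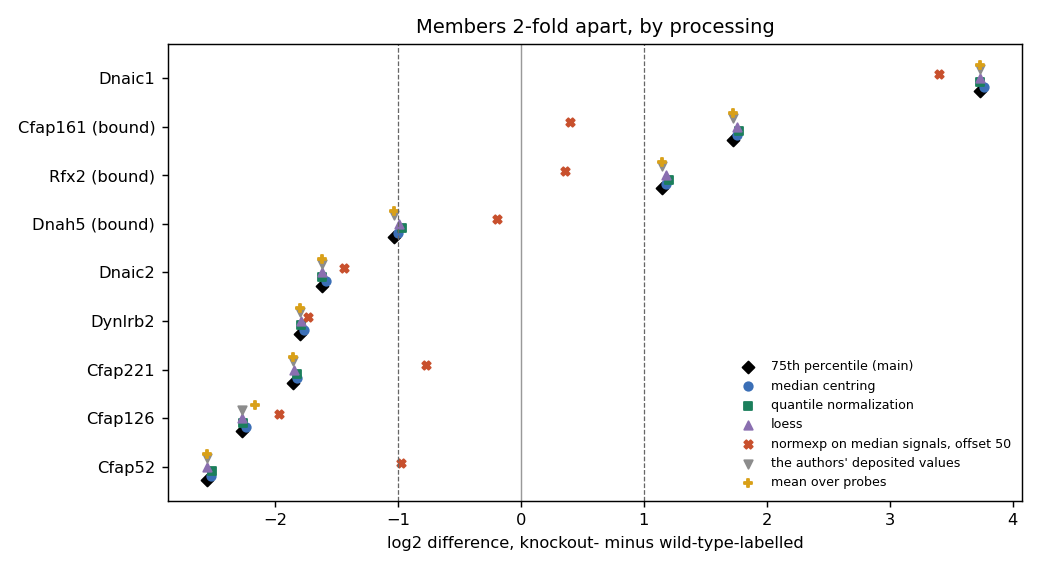
Log2 difference, knockout- minus wild-type-labelled, of the 9 members 2-fold apart under the main values (black) and 6 alternatives (colours). Dashed lines mark 2-fold; Dnaic1, Dnaic2, Dynlrb2 and Cfap126 stay beyond them under all 7, whereas normexp brings the other 5 inside.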

How the data were processed

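RNA of 2 retina samples, 1 in each group, was measured on 1-colour Agilent arrays. The authors deposited linear intensity values from Agilent Feature Extraction version 11.5.1.1, with background subtraction and spatial detrending recorded per the file headers. Their deposited value table held the same intensity values times a constant for each array (median log2 ratio 1.31 and 1.37), and no scaling rule is given in the labels or headers. Values here are log2 processed signal minus the 75th percentile of the array. Outlier spots were left out and spots of 1 probe averaged. Probes were named through unversioned RefSeq accessions in a gene table of GRCm38.p6 (28330 of 55677 probes had 1 symbol, 0 several and 27347 none), and the brightest probe stood for a gene. The array design was built on mm9, so no gene coordinates were carried over. A gene counted when at least 2-fold apart.

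The members, lists and naming rule (full values for members 2-fold apart, transcription factors and the 3 brightest members) were chosen with earlier results of these data known. Alternatives were median centring, quantile, loess (lowess in statsmodels 0.14.6, span 0.3), normexp on median signals (limma 3.58.1, offset 50), the deposited table, the mean over probes, filters and other thresholds. The mean over probes took in probes not above background as well. A longer, gapped X-box motif was searched too and is not reported here. The counting step was tested on simulated data. The number of arrays limits the precision.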

Additional observations from a re-analysis of the deposited data

How the results depend on the processing

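Against 3 members at least 2-fold higher and 6 lower, normexp on median signals gave 1 and 3, a filter asking for signal above background on each array 1 and 5, a 1.5-fold threshold 5 and 12 and a 4-fold threshold 1 and 2. The shares of all named genes, higher and lower, were 0.753% and 0.282% under normexp, 1.05% and 0.616% with that filter, 2.96% and 3.20% at 1.5-fold and 0.496% and 0.364% at 4-fold. That filter removes members above background on 1 array only by its construction, and the normexp offset shrinks dim differences by arithmetic. The median difference of the members went from -0.28 to -0.11 under normexp and to -0.15 with no filter on dim probes, which takes in more genes. The counts under median centring, quantile normalization, loess, the authors' deposited values, the mean over probes and no filter stayed within 1.5 times. The medians of the other motile cilium genes and of the connecting cilium list moved by less than the median technical SD of 0.14 under every alternative run for them. Of 222 recomputed values of the 37 measured members, 24 moved by over the technical SD, 19 of them under normexp and 5 with the mean over probes. None of the 9 members 2-fold apart changed sign under the alternatives, while 7 other members did under at least 1, namely Cfap46, Cfap53, Dnah1, Dnah7a, Hydin, Ropn1l and Tekt2. Naming probes by the file's own gene names could not be done, since those files carry no gene name column. No paired analysis was possible because either group holds a single array. Dim signal limits Cfap52, Cfap221 and the members above background on 1 array only.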
